A study of Mus musculus with 6 samples.

Results

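The 10 genes described here mark the endothelium, the cell layer that lines blood vessels. They were taken by symbol from a table of 22838 genes, and all 10 were found. Stab1 and Stab2 were treated as the 2 sinusoidal genes, and Cdh5, Pecam1, Emcn, Esam, Robo4, Plvap, Cldn5 and Sox18 as the 8 general vessel genes. Transcripts had been measured by RNA sequencing of tibial and femoral marrow from 3 Cbx2-/- mice and 3 wild-type mice. All animals were 3 weeks old, of strain 129/C57BL/6, and untreated as far as the labels say. Cbx2-/- animals weighed 4.0 g on average and wild-type animals 12.3 g, per the labels. Cbx2 encodes a chromobox protein of a Polycomb repressive complex, and the labels do not describe the allele, its promoter or the cells in which it acts. Whole marrow was used, so more vessel cells and more RNA per vessel cell cannot be told apart in any value below. Transcripts from other marrow cells, or a changed share of RNA from other cells, cannot be told apart from these either.

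Marrow sinusoids are wide, thin-walled venous vessels with a discontinuous floor through which blood cells enter the circulation. Their endothelium clears waste molecules from blood by endocytosis, for which it carries the stabilins, the large scavenger receptors encoded by Stab1 and Stab2. Other endothelial genes encode parts that nearly all vessels share, such as the cell junctions, or parts that differ by vessel type, such as the diaphragms that close small pores.

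Library-wide facts bear on these values. Values are FPKM, read fragments relative to transcript length and library size, so they can be compared between genes as levels per length. Cbx2 itself was at 2.11, 1.87 and 1.88 FPKM in Cbx2-/- marrow and 2.90, 3.83 and 2.75 FPKM in wild-type marrow (limma adjusted p = 0.0558), so the targeted transcript was still read in the mutant libraries. Skeletal muscle genes summed to 417 and 470 FPKM in Cbx2-/- replicates 1 and 2, to 13.8 FPKM in Cbx2-/- replicate 3, and to between 23.4 and 35.04 FPKM in wild-type marrow. By limma's adjusted p, 0 of 6 muscle genes tested passed, and 3 were higher at an unadjusted p under 0.05. The correlation of log2 values was 0.987 between Cbx2-/- replicates 1 and 2 and 0.946 and 0.956 between those and replicate 3. Results are therefore also given without replicate 3 and without replicates 1 and 2. Among 12006 genes tested, 1057 were higher and 998 lower in Cbx2-/- marrow at a limma adjusted p under 0.05, or 8.80% and 8.31%.

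Most of the endothelial genes rose in Cbx2-/- marrow. Of the 10 genes, 6 rose, none fell by limma's adjusted p, and 4 did not pass, against 8.80% of all tested genes that rose. All 10 were above 1 FPKM in every library, so none entered the test through 1 genotype alone. At an unadjusted p under 0.05, 9 were higher and 0 lower, Pecam1 being the exception. Both sinusoidal genes rose, as did 4 of the 8 general vessel genes (Robo4, Emcn, Cdh5 and Plvap). The median difference was 1.08 over the 10 genes and 0.02 over all tested genes (log2 of FPKM + 1). In 9 of the 10 genes every Cbx2-/- library lay above every wild-type library, which held for 21.4% of all tested genes.

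**Figure D1:**
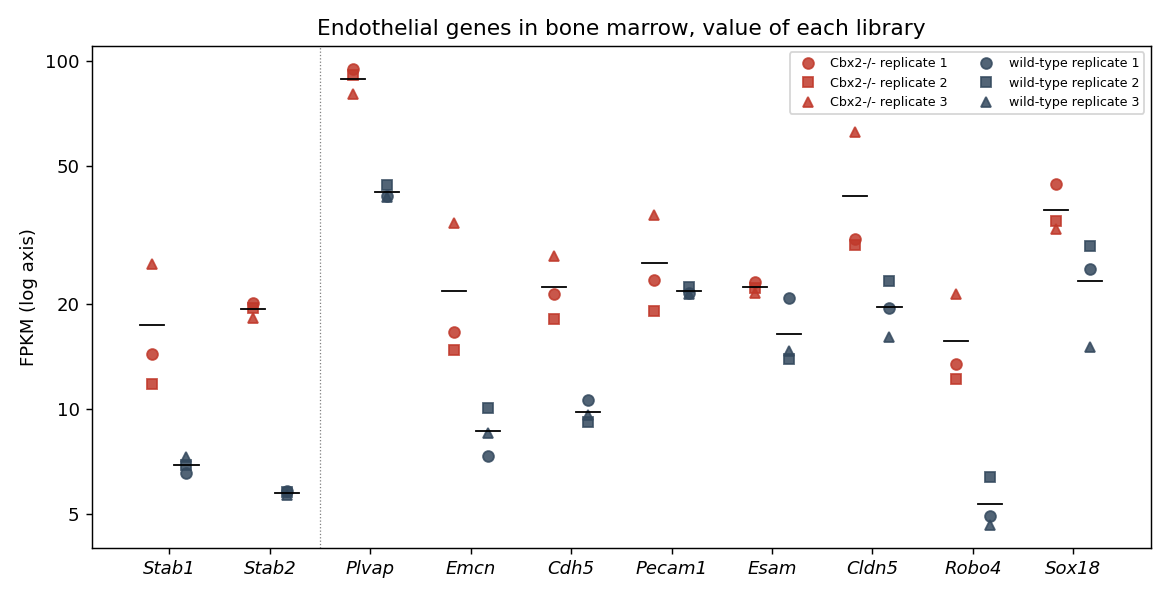
FPKM (log axis) of each of the 10 genes in each of the 6 libraries, with Cbx2-/- libraries left of wild-type libraries, one marker shape per replicate number, and the mean of 3 libraries as a line. Stab1 and Stab2 stand left of the dotted line. Pecam1 is the gene whose groups overlap, and Cbx2-/- replicate 3 (triangles) stands above the other Cbx2-/- libraries for Stab1, Emcn, Cdh5, Pecam1, Cldn5 and Robo4.

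The stabilin genes are shown first by the sequence before their starts, since they rose in Cbx2-/- marrow with different spreads over the mutant libraries. RefSeq promoter windows (GRCm38.p6, the assembly of mm10) were found for 5 of the 10 genes: Stab1, Stab2, Emcn, Cldn5 and Robo4. The 250 bases before the start are printed 5′ to 3′ on the gene's strand, at chr14:31168642-31168891 (minus strand) for Stab1 and chr10:87007943-87008192 (minus strand) for Stab2, with the ETS letters CAGGAAG in capitals.
Stab1: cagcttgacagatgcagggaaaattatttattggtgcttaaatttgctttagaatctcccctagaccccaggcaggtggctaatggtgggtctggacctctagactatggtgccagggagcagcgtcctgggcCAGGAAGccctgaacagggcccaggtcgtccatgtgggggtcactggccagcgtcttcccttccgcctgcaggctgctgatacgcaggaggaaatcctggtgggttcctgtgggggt
Stab2: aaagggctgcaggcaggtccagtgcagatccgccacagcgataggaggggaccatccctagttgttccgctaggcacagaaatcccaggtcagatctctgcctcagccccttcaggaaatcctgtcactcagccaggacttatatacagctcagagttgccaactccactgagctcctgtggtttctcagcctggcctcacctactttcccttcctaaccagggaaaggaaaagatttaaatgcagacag
ETS factors such as Erg and Fli1 act in endothelium. The letters CAGGAAG, on either strand, stood in 3 of the 5 windows (Stab1, Emcn and Robo4) and in 10.8% of 32851 windows of that length over all genes. The starts are those of RefSeq, and the GENCODE starts of Stab2, Emcn and Robo4 lie inside their windows. In Robo4 the letters CAGGAAG lie after the GENCODE start. The SOX letters AACAAAG and the GATA letters AGATAA, on either strand, stood in none of the 5, and in 5.03% and 9.99% of all windows. The ratio of observed to chance CpG pairs was 0.249 before Stab1, 0.172 before Stab2, 0.0965 before Emcn, 0.131 before Robo4 and 0.549 before Cldn5, with a median of 0.374 over all windows. Cldn5 was thus the gene above that median, and the other 4 were below it. A match of letters describes the window and is not a measured binding site.

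Stab2 had the largest and tightest rise of the 10 genes. Stab2 (chromosome 10, 86841198 to 87008025, minus strand, up to 69 exons in a GENCODE transcript) encodes a receptor for hyaluronan and other ligands that is a defining gene of sinusoidal endothelium. It was at 20.2, 19.6 and 18.3 FPKM in Cbx2-/- marrow and at 5.80, 5.79 and 5.68 FPKM in wild-type marrow. The groups were far apart, with the lowest mutant library more than 10 FPKM above the highest wild-type library. The means were 19.4 ± 0.984 FPKM in Cbx2-/- marrow and 5.76 ± 0.0660 FPKM in wild-type marrow (SD, n = 3 each), a ratio of 3.36. The difference was 1.59 ± 0.12 (log2 of FPKM + 1, SE; limma adjusted p = 0.000406), with a 95% interval of 1.32 to 1.86. It passed in all 19 alternative fits, which changed 1 setting each or left out libraries, and the 6 that left out 1 library gave 1.56 to 1.63. GENCODE places antisense transcripts and processed pseudogenes inside Stab2, and reads of these could not be separated from it without knowing the strand setting.

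Stab1, the paralog of Stab2, rose with a wide spread. Stab1 (chromosome 14, 31139013 to 31168641, minus strand) encodes a scavenger receptor that is carried by sinusoidal endothelium and also by macrophages. It was at 14.4, 11.8 and 26.2 FPKM in Cbx2-/- marrow and at 6.55, 6.89 and 7.30 FPKM in wild-type marrow. The groups did not overlap, and Cbx2-/- replicate 3 held 2.0 times the mean of the other mutant libraries. For Stab2 that same quotient was 0.919. The Stab1 difference was 1.15 ± 0.26 (log2 of FPKM + 1, SE; limma adjusted p = 0.0227). Without Cbx2-/- replicate 3 it was 0.83 (limma adjusted p = 0.00256), and with replicates 1 and 2 left out instead it was 1.78 (limma adjusted p = 0.000258). The call was lost without Cbx2-/- replicate 1 (limma adjusted p = 0.0506) and without wild-type replicate 1, 2 or 3 (limma adjusted p = 0.0890, 0.0818 and 0.0773), and with no filter on low values (limma adjusted p = 0.0537). The 3′ end of Stab1 overlaps Nt5dc2, and the deposited table gives both genes as 1 locus. Nt5dc2 was at 49.7 ± 18.1 FPKM in Cbx2-/- marrow and 55.3 ± 8.17 FPKM in wild-type marrow (SD, n = 3 each; limma adjusted p = 0.678).

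Some macrophage genes rose too. The 17 genes of a macrophage list summed to between 1299 and 1637 FPKM in Cbx2-/- marrow and between 771 and 915 FPKM in wild-type marrow, and none was at 0 in every library. Of these 17 genes 9 rose and none fell by limma's adjusted p, with a median difference of 0.82 (12 higher and 0 lower at an unadjusted p under 0.05), against 8.80% and 8.31% of all tested genes. The count of rises was 2, 5 and 3 without wild-type replicates 1, 2 and 3, 5 without Cbx2-/- replicate 1, and 4 with no filter on low values. Cd5l, a secreted protein gene of tissue macrophages, rose to 61.3 ± 18.1 FPKM in Cbx2-/- marrow, against 15.9 ± 4.78 FPKM in wild-type marrow (SD, n = 3 each; limma adjusted p = 0.00512). Axl, a receptor gene for dying cells, rose 1.84-fold, Hmox1 2.46-fold, and Cd68, a lysosomal protein gene, 1.73-fold. These 4 genes, with Emr1, Mrc1 and Marco, were not highest in Cbx2-/- replicate 3, where Stab1 was. The other genes of the list were highest there: C1qa, C1qb, C1qc, Cd163, Timd4, Mertk, Siglec1, Csf1r, Vcam1 and Spic. Of these, Mertk (8.55, 6.00 and 11.7 FPKM in mutant libraries), Siglec1 (7.21, 5.76 and 10.5 FPKM) and Spic (14.3, 20.8 and 31.2 FPKM) rose by limma's adjusted p. Among mutant libraries, Hmox1 (360, 375 and 275 FPKM), Axl (47.4, 38.7 and 36.9 FPKM) and Cd68 (98.1, 91.9 and 91.8 FPKM) were lowest in replicate 3, and Cd5l (80.7, 44.8 and 58.5 FPKM) was highest in replicate 1. The part of macrophages in the Stab1 rise was not tested.

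Plvap and Emcn, which mark capillary and venous endothelium, both rose. Plvap (chromosome 8, 71497765 to 71511752, minus strand) encodes the protein of the diaphragms that span fenestrae and caveolae. It was at 95.2, 91.5 and 80.6 FPKM in Cbx2-/- marrow and at 41.0, 44.1 and 40.8 FPKM in wild-type marrow. Plvap had the highest level of the 10 genes in both genotypes, and its groups were far apart. The difference was 1.07 ± 0.15 (log2 of FPKM + 1, SE; limma adjusted p = 0.00375), and it passed in all 19 alternative fits.

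Emcn (chromosome 3, 137341067 to 137432185, plus strand) encodes endomucin, a sialomucin of the luminal surface that is used to stain bone capillaries and sinusoids. It was at 16.7, 14.7 and 34.3 FPKM in Cbx2-/- marrow and at 7.35, 10.1 and 8.56 FPKM in wild-type marrow. As for Stab1, the groups were separate and Cbx2-/- replicate 3 stood above the others, by 2.19 times their mean. The difference was 1.16 ± 0.30 (log2 of FPKM + 1, SE; limma adjusted p = 0.0340). The call was lost without Cbx2-/- replicate 1 (limma adjusted p = 0.0579), without wild-type replicate 1, 2 or 3 (limma adjusted p = 0.129, 0.0807 and 0.111), with no filter (0.0730), and after TPM rescaling or quantile normalization (0.0568 and 0.0564). Without Cbx2-/- replicate 3 the difference was 0.80 and the limma adjusted p was 0.00535.

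The 4 junction and adhesion genes split. Cdh5 (chromosome 8, 104101625 to 104144511, plus strand) encodes VE-cadherin, the adherens junction protein found on endothelium of nearly every vessel. It was at 21.4, 18.2 and 27.6 FPKM in Cbx2-/- marrow and at 10.6, 9.15 and 9.60 FPKM in wild-type marrow. All mutant libraries lay above all wild-type libraries, and the difference was 1.10 ± 0.17 (log2 of FPKM + 1, SE; limma adjusted p = 0.00598). It passed in all 19 alternative fits. Cldn5 (chromosome 16, 18776847 to 18778262, plus strand) encodes the main claudin of endothelial tight junctions. It was at 30.9, 29.6 and 62.7 FPKM in Cbx2-/- marrow and at 19.6, 23.4 and 16.1 FPKM in wild-type marrow. The groups were separate, but Cldn5 did not pass, with a difference of 0.95 ± 0.29 (log2 of FPKM + 1, SE; limma adjusted p = 0.0623). Without Cbx2-/- replicate 3 the difference was 0.61 and passed (limma adjusted p = 0.0204), and without replicate 2 it was 1.14 and passed (limma adjusted p = 0.0440). With Cbx2-/- replicates 1 and 2 left out it was 1.64, and with a muscle covariate 1.54 (limma adjusted p = 0.000592). Muscle genes were high only in those same replicates, so the covariate fit largely repeats the comparison of replicate 3 with wild-type marrow.

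Pecam1 and Esam had the smallest differences. Both are also carried by blood cells, but so is Stab1, by macrophages, and Stab1 rose. Pecam1 (chromosome 11, 106654217 to 106750628, minus strand) encodes CD31, an adhesion protein of endothelium, platelets and many white cells. It was at 23.6, 19.1 and 36.3 FPKM in Cbx2-/- marrow and at 21.5, 22.5 and 21.4 FPKM in wild-type marrow. The groups overlapped, with Cbx2-/- replicate 2 below all wild-type libraries and replicate 3 above them. The difference was 0.21, with a 95% interval of -0.31 to 0.73 (log2 of FPKM + 1; limma adjusted p = 0.577), and it was -0.037 without Cbx2-/- replicate 3. With Cbx2-/- replicates 1 and 2 left out the difference was 0.71 and passed (limma adjusted p = 0.00736).

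Esam (chromosome 9, 37528078 to 37538319, plus strand) encodes an endothelial adhesion molecule of tight junctions that platelets and stem cells also carry. It was at 23.2, 22.3 and 21.6 FPKM in Cbx2-/- marrow and at 20.8, 14.0 and 14.7 FPKM in wild-type marrow. The groups were separate by a small margin, wild-type replicate 1 being the closest, and the difference was 0.44 with a 95% interval of 0.04 to 0.84 (log2 of FPKM + 1; limma adjusted p = 0.123). It passed in none of the 19 alternative fits. Megakaryocyte and platelet genes, 15 in all, summed to between 900 and 1491 FPKM in Cbx2-/- marrow and between 1237 and 2431 FPKM in wild-type marrow, and none passed limma's adjusted p, with a median difference of -0.35 (0 higher and 3 lower at an unadjusted p under 0.05). Of 12 tested stem and progenitor cell genes 3 rose (Kit, Gata2 and Fgd5) and none fell by limma's adjusted p (6 higher and 0 lower at an unadjusted p under 0.05), against 8.80% and 8.31% of all tested genes. Fgd5 was at 0.857, 1.24 and 0.941 FPKM in wild-type marrow, so it was tested mainly through the mutant libraries. With at least 1 FPKM required in all 6 libraries 2 of 8 rose. The count of rises was 2 without Cbx2-/- replicate 1 or any 1 wild-type library. The part of these cells in the Pecam1 and Esam values was not tested.

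Robo4, the guidance receptor of the group, had the largest rise of the 10 after Stab2. Robo4 (chromosome 9, 37401897 to 37415115, plus strand) encodes an endothelial roundabout receptor that steadies vessel walls against leakage. It was at 13.5, 12.2 and 21.4 FPKM in Cbx2-/- marrow and at 4.94, 6.38 and 4.65 FPKM in wild-type marrow. The groups were separate, with replicate 3 the highest mutant library. The ratio of means was 2.95, and the difference was 1.37 ± 0.22 (log2 of FPKM + 1, SE; limma adjusted p = 0.00637). It passed in all 19 alternative fits.

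Sox18 (chromosome 2, 181669836 to 181671640, minus strand), the transcription factor of the group, acts in vessel and lymphatic formation. It was at 44.5, 34.8 and 33.0 FPKM in Cbx2-/- marrow and at 25.3, 29.5 and 15.1 FPKM in wild-type marrow. The groups were separate, but the wild-type libraries differed among themselves by more than the gap between the groups. The difference was 0.70 ± 0.25 (log2 of FPKM + 1, SE; limma adjusted p = 0.0971), and it passed without Cbx2-/- replicate 3 (limma adjusted p = 0.0492) and in no other alternative. Without wild-type replicate 3, the lowest library, the difference was 0.43 (limma adjusted p = 0.247).

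**Figure D2:**
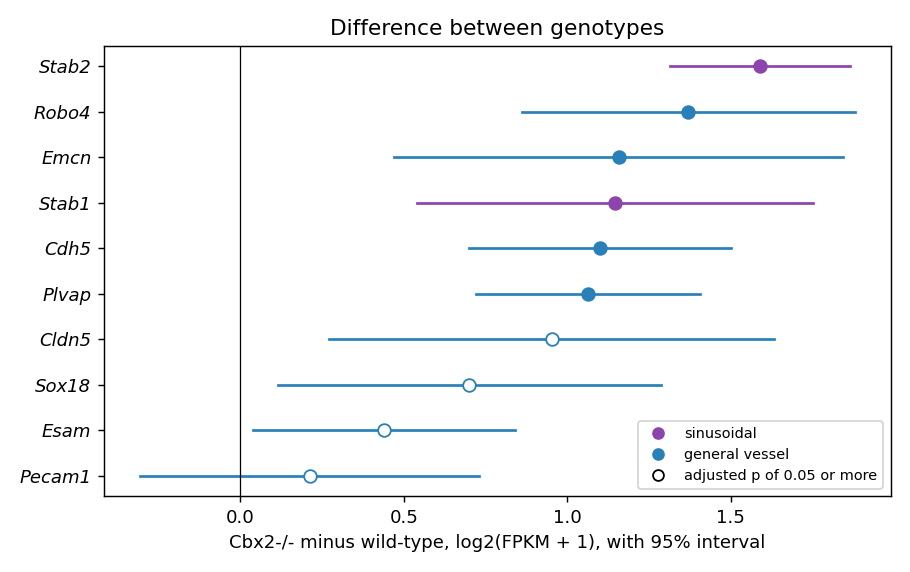
Difference of each gene, Cbx2-/- minus wild-type, in log2(FPKM + 1), with its 95% interval from the limma fit over 3 libraries per genotype. Filled points passed an adjusted p of 0.05; Stab2 and Robo4 have the largest differences (1.59 and 1.37), and the interval of Pecam1 spans 0.

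The order of levels was partly shared by the genotypes. Plvap was highest in both, at 89.1 ± 7.63 FPKM in Cbx2-/- marrow and 42.0 ± 1.87 FPKM in wild-type marrow (SD, n = 3 each), and its libraries did not overlap with those of the next gene in either. Robo4 was lowest in both, at 15.7 ± 5.003 FPKM in Cbx2-/- marrow and 5.32 ± 0.929 FPKM in wild-type marrow. In Cbx2-/- marrow the order below Plvap was Cldn5, Sox18, Pecam1, Cdh5, Esam, Emcn, Stab2, Stab1 and Robo4, and no gene there was separate from the next. In wild-type marrow it was Sox18, Pecam1, Cldn5, Esam, Cdh5, Emcn, Stab1, Stab2 and Robo4. Esam was separate from Cdh5, Emcn from Stab1 and Stab1 from Stab2 in wild-type marrow, and the other neighbours overlapped. The SD was 5.09% of the mean for Stab2 and 3.57% for Esam among mutant libraries, against 44.1% for Stab1, 49.3% for Emcn and 45.7% for Cldn5.

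Sinusoidal genes were then set against general vessel genes within each library. The ratio of Stab2 to Cdh5 was 0.944, 1.08 and 0.662 in Cbx2-/- marrow and 0.546, 0.633 and 0.592 in wild-type marrow. The groups did not overlap, although Cbx2-/- replicate 3 was close to wild-type replicate 2. The log2 ratio (of FPKM + 1) was 0.49 higher in Cbx2-/- marrow, with p = 0.1 in an exact permutation test, two-sided, the smallest that 3 against 3 libraries allow. With Cbx2-/- replicates 1 and 2 left out that difference was 0.10, and without replicate 3 it was 0.68. The ratio of Stab1 to Cdh5 was 0.672, 0.648 and 0.949 in Cbx2-/- marrow and 0.617, 0.753 and 0.760 in wild-type marrow. The groups overlapped, the difference in log2 ratio was 0.05, and the exact permutation p was 0.8. With Cbx2-/- replicates 1 and 2 left out the Stab1 difference was 0.37, and without replicate 3 it was -0.12, so its sign turned with the mutant libraries used. These 2 ratios were the ones tested, and neither could pass 0.05 in this design.

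The ratios of the other genes to Cdh5 are given without a test. Pecam1 to Cdh5 was 1.10, 1.05 and 1.31 in Cbx2-/- marrow and 2.03, 2.45 and 2.23 in wild-type marrow. Esam to Cdh5 was 1.08, 1.23 and 0.783 in Cbx2-/- marrow and 1.96, 1.53 and 1.53 in wild-type marrow. In both genes every mutant library was below every wild-type library. Plvap to Cdh5 averaged 4.13 ± 1.10 in Cbx2-/- marrow and 4.31 ± 0.482 in wild-type marrow (SD, n = 3 each), and its groups overlapped, as did those of Emcn, Cldn5, Robo4 and Sox18. Overlap of 3 with 3 libraries does not show an equal ratio. The difference in log2 ratio (of FPKM + 1) was -0.03 for Plvap, 0.06 for Emcn, -0.15 for Cldn5, 0.27 for Robo4 and -0.40 for Sox18.

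The mean log2 level of Stab1 and Stab2 minus that of the 8 general genes was -0.67, -0.66 and -0.68 in Cbx2-/- marrow and -1.23, -1.28 and -0.99 in wild-type marrow. It was higher in every mutant library, by 0.49 on average, and nearly equal among the 3. With Pecam1 and Esam left out of the general genes, a choice made after their values were seen, the average difference was 0.31. With Plvap and Emcn counted as sinusoidal it was 0.44. No p is given for these sums over chosen genes.

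**Figure D3:**
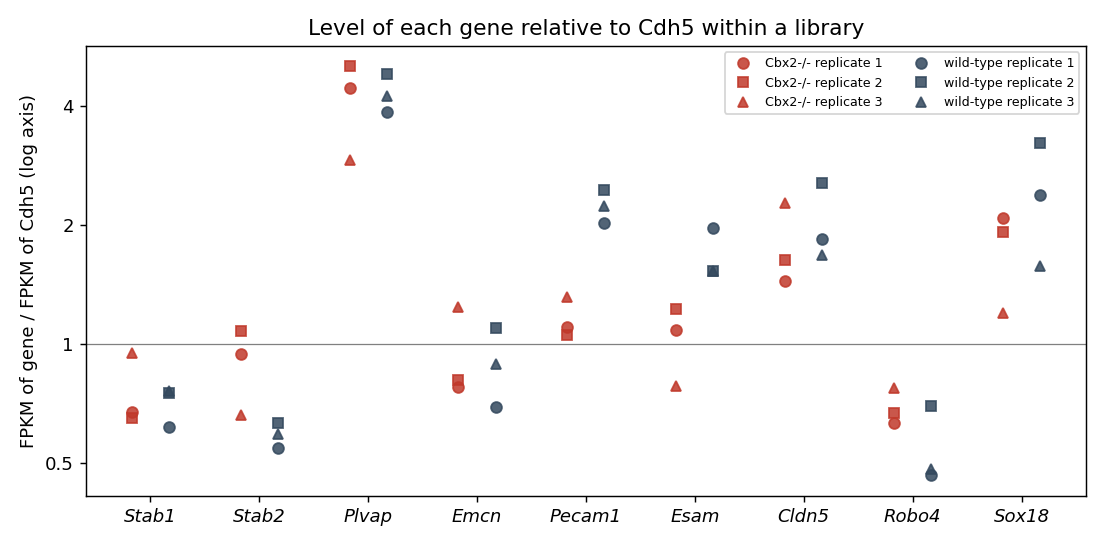
FPKM of each of 9 genes divided by the FPKM of Cdh5 in the same library (log axis), Cbx2-/- libraries left of wild-type libraries, one marker shape per replicate number. Pecam1 and Esam are lower relative to Cdh5 in all Cbx2-/- libraries, and Stab2 is higher, with Cbx2-/- replicate 3 at 0.662 and the highest wild-type library at 0.633.

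Cbx2-/- replicate 3 divided the 10 genes into separate patterns. Stab1, Emcn, Cldn5, Pecam1, Robo4 and Cdh5 stood there at 1.40 to 2.19 times the mean of replicates 1 and 2, while Stab2, Plvap, Esam and Sox18 stood at 0.833 to 0.951 times that mean. At least 1.3 times, a limit set after the values were seen, was reached by 6 of the 10 genes and by 22.7% of all tested genes. By the distance between centred log2 profiles over 6 libraries, the closest pair was Stab1 and Emcn (0.290), and the farthest Stab2 and Pecam1 (1.84). Stab1 and Stab2 lay 1.05 apart. Replicate 3 also had the lowest summed muscle transcripts of the mutant libraries (13.8 FPKM, with 417 and 470 FPKM in replicates 1 and 2), and the part of muscle tissue in this split was not tested.

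Some other sinusoidal genes rose as well. Of 16 genes on a wider list of sinusoidal endothelium, 11 were tested, of which 5 rose and none fell by limma's adjusted p, against 8.80% and 8.31% of all tested genes, with a median difference of 0.82. At an unadjusted p under 0.05, 8 were higher and 0 lower. Flt4, a receptor gene for lymphatic and sinusoidal growth factors, was at 16.7, 11.2 and 14.9 FPKM in Cbx2-/- marrow and at 5.43, 4.81 and 4.07 FPKM in wild-type marrow (limma adjusted p = 0.00270). Its groups were well apart. Il6st, the shared receptor gene of the interleukin-6 family, rose 2.06-fold, and Cd36, a fatty acid and scavenger receptor gene that adipocytes and macrophages also express, 2.03-fold. Oit3, known from liver sinusoids, rose to 1.75 ± 0.620 FPKM in Cbx2-/- marrow, against 0.422 ± 0.135 FPKM in wild-type marrow (SD, n = 3 each; limma adjusted p = 0.0185), and it reached the test only through the mutant libraries. Requiring at least 1 FPKM in all 6 libraries left 10 genes of the list, of which 4 rose. Vcam1, Fcgr2b, Ehd3, Tspan7, Maf and Dnase1l3 did not pass. Lyve1, Clec4g, F8, Gata4 and Adam23 were under the filter. Clec4g, a lectin gene known from liver sinusoids, was at 0.581, 0.572 and 0.411 FPKM in Cbx2-/- marrow and at 3.78, 0.944 and 1.64 FPKM in wild-type marrow, lower in every mutant library but not tested. The count of genes that rose was 1 to 6 when 1 library was left out. It was 2 without Cbx2-/- replicate 1 or wild-type replicate 1, and 1 without wild-type replicate 3.

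Some general endothelial genes beyond the 10 rose as well. Of 36 genes on that list 33 were tested, and 13 rose, 1 fell and 19 did not pass, against 8.80% and 8.31% of all tested genes, with a median difference of 0.60. She, counted among the rises, reached the test only through the mutant libraries (0.627, 0.709 and 0.641 FPKM in wild-type marrow). Requiring at least 1 FPKM in all 6 libraries left 31 genes of the list, of which 13 rose and 1 fell. Gpihbp1, which carries lipoprotein lipase across capillaries, was at 61.7, 60.5 and 102 FPKM in Cbx2-/- marrow and at 15.03, 15.4 and 12.1 FPKM in wild-type marrow (limma adjusted p = 0.00113). Its rise was 5.28-fold, the largest ratio among the 4 genes of this list with the lowest adjusted p. Kdr, the main receptor gene for vascular endothelial growth factor, rose 2.76-fold, Eng, a co-receptor gene of the transforming growth factor family, 2.38-fold, and Gpr116, an adhesion receptor gene, 3.83-fold. Tal1, the gene that fell, is also a transcription factor gene of red cell precursors; it is named here for being the only fall, after its values were seen. It was at 33.2, 42.2 and 23.7 FPKM in Cbx2-/- marrow and at 80.8, 77.3 and 56.1 FPKM in wild-type marrow (limma adjusted p = 0.0194). The count of genes that rose was 6 to 17 when 1 library was left out. It was 8 without Cbx2-/- replicate 1, and 6, 7 and 6 without wild-type replicates 1, 2 and 3.

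Arterial genes were mixed. Of 12 tested, 3 rose, 2 fell and 7 did not pass, against 8.80% and 8.31% of all tested genes, with a median difference of 0.35. The count of rises was 0 without Cbx2-/- replicate 1 or any 1 wild-type library, 4 without Cbx2-/- replicate 3, and 8 with Cbx2-/- replicates 1 and 2 left out. Unc5b, a netrin receptor gene of arteries and vessel tips, fell to 2.39 ± 0.430 FPKM in Cbx2-/- marrow, against 9.80 ± 1.20 FPKM in wild-type marrow (SD, n = 3 each; limma adjusted p = 0.000766). Hey1, a Notch target gene that osteoblasts also express, fell to 1.12 ± 0.646 FPKM in Cbx2-/- marrow, against 5.03 ± 1.93 FPKM in wild-type marrow (SD, n = 3 each; limma adjusted p = 0.0124). Hey1 was under 1 FPKM in 2 of the 3 mutant libraries (0.742, 0.756 and 1.87 FPKM), so it was tested mainly through the wild-type libraries, and with at least 1 FPKM required in all 6 libraries 1 gene of the list fell. Acvrl1, a bone morphogenetic protein receptor gene, rose 1.67-fold, and Bmx, a kinase gene of arterial endothelium, 2.22-fold.

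Genes of the cells that wrap vessels rose in part. Of 9 tested pericyte and smooth muscle genes 5 rose and 1 fell, against 8.80% and 8.31% of all tested genes, with a median difference of 0.93. The count of rises was 1 without any 1 wild-type library and 3 without Cbx2-/- replicate 1 or with the replicate block. The gene that fell, Cspg4, named after its value was seen, was at 0.456, 0.476 and 0.676 FPKM in Cbx2-/- marrow and at 1.12, 1.26 and 1.14 FPKM in wild-type marrow (limma adjusted p = 0.0437). It reached the test only through the wild-type libraries, and no gene fell with at least 1 FPKM required in all 6 libraries, after TPM rescaling or with the replicate block. With no filter on low values 13 genes of the list were tested, of which 1 rose and 2 fell. The rises with the lowest adjusted p were those of Abcc9 and Kcnj8, subunit genes of a potassium channel of pericytes, at 2.45-fold and 2.08-fold, the receptor gene Notch3 at 2.56-fold and the adhesion gene Mcam at 2.77-fold. The list summed to between 70.6 and 126 FPKM in Cbx2-/- marrow and between 35.9 and 42.9 FPKM in wild-type marrow. Of 4 tested lymphatic genes, Flt4 rose and Pdpn fell, against 8.80% and 8.31% of all tested genes, Pdpn being at 0.903 ± 0.364 FPKM in Cbx2-/- marrow and 3.51 ± 0.822 FPKM in wild-type marrow (SD, n = 3 each; limma adjusted p = 0.00597). Pdpn was under 1 FPKM in 2 of the 3 mutant libraries, and no gene of the list fell with at least 1 FPKM required in all 6 libraries. Prox1, the defining lymphatic factor gene, was at 0 to 0.0380 FPKM in Cbx2-/- marrow and 0.0171 to 0.0446 FPKM in wild-type marrow, close to 0 in both.

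**Figure D4:**
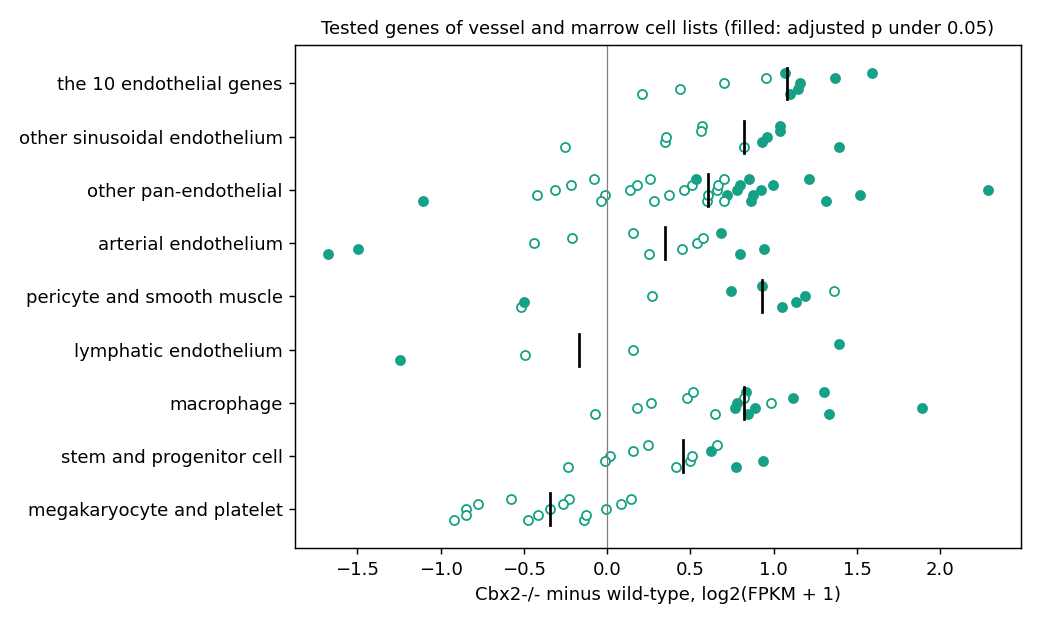
Difference between Cbx2-/- and wild-type marrow, in log2(FPKM + 1), of each tested gene (points) of the 10 endothelial genes and 8 wider lists, with the median as a bar; filled points passed a limma adjusted p of 0.05. The medians of the 10 genes (1.08), other sinusoidal (0.82), other pan-endothelial (0.60) and pericyte genes (0.93) lie above 0. Those of macrophage (0.82), stem and progenitor cell (0.46) and arterial genes (0.35) do too. The medians of lymphatic (-0.17) and of megakaryocyte and platelet genes (-0.35) lie below 0.

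The genes with profiles most like those of Stab2 and Cdh5 are in none of the lists used here. By distance over the 6 libraries, among all tested genes, the 5 closest to Stab2 were Pim3 (0.173), Podn (0.254), S100a6 (0.265), Susd4 (0.268) and Id2 (0.289). Pim3, a kinase gene, was at 41.1, 34.0 and 36.5 FPKM in Cbx2-/- marrow and at 11.7, 11.8 and 11.3 FPKM in wild-type marrow. Its groups were far apart, as were those of Stab2. The 5 closest to Cdh5 were Map3k9 (0.129), Pram1 (0.191), Pkp2 (0.192), Sh3bp5 (0.197) and Pygl (0.206). Podn, Susd4 and Pkp2 reached the test only through the mutant libraries. In wild-type marrow Podn was at 0.721, 0.698 and 0.458 FPKM, Susd4 at 0.202, 0.0572 and 0.214 FPKM, and Pkp2 at 0.306, 0.202 and 0.255 FPKM.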

How the data were processed

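Poly(A) RNA had been made into stranded libraries and read as 50-base single ends, per the labels' protocols, with 1 animal behind each library. The submitters' processing notes name FastQC 0.11.5, TopHat2 2.1.0, Cufflinks 2.2.1 and build mm10, without roles. No source used here gives the annotation, strand setting or read totals. The authors deposited FPKM values for 22838 genes in 6 libraries. Values under 0.15 FPKM, through their commonest ratio, gave relative depths of 0.91 to 1.22, with wild-type replicate 1 as 1.

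The 12006 genes that reached 1 FPKM in 3 or more libraries were compared as log2(FPKM + 1), which understates changes of low genes. The test was limma 3.58.1 (R 4.3.3; empirical Bayes with trend, two-sided, no covariate), with p-values adjusted by Benjamini-Hochberg over the 12006 genes and called under 0.05. The script was tested on simulated data. Ratios used an exact permutation test (scipy 1.17.1). Fold values are ratios of mean FPKM. Alternatives changed the pseudocount, filter, scaling, limma settings and libraries, or added the replicate number as a block, the muscle level, or chromosomal sex (Xist above 1 FPKM in replicates 2 and 3 of each genotype) to the fit.

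Positions are from GENCODE vM21 (GRCm38), counted from 1. The members and lists were chosen with earlier results of these data known. Named genes were the 10, the 4 of lowest adjusted p per list, neighbours that passed, and the 5 most like Stab2 and Cdh5; others are named to account for a list. Figures were drawn with matplotlib 3.10.9.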

Additional observations from a re-analysis of the deposited data

How the results depend on the processing

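Stab2, Plvap, Cdh5 and Robo4 rose in all 19 alternatives tried for each, Stab1 in 14 and Emcn in 12. With 1 library left out, 4 to 8 of the 10 genes rose: 4 without Cbx2-/- replicate 1 or any 1 wild-type library, 7 without Cbx2-/- replicate 2 and 8 without replicate 3. Over all genes, leaving out 1 library gave 367 to 2069 higher and 475 to 1719 lower genes. Same-numbered libraries did not deviate together (correlations 0.19, -0.18 and -0.10), so the numbers are not taken to pair the animals. The replicate block gave 634 higher genes and changed no call among the 10. With Cbx2-/- replicates 1 and 2 left out, 2047 genes were higher and 2714 lower, and with a muscle covariate 2115 and 2627; 8 of the 10 genes rose in both, the lone mutant library being assumed to vary like the others. The muscle covariate, which was high only in Cbx2-/- replicates 1 and 2, also gave 8 other sinusoidal genes that rose. With 1 library left out the sinusoidal list held 1 to 6 rises, and the pan-endothelial list 6 to 17 rises and 0 to 2 falls. The Stab1 to Cdh5 difference ran from -0.12 to 0.14 with 1 library left out, being negative without Cbx2-/- replicate 3 or wild-type replicate 1, and was 0.37 with Cbx2-/- replicates 1 and 2 left out. The Pecam1 difference ran from -0.037 without Cbx2-/- replicate 3 to 0.41 without replicate 2; the cause was not tested. Leaving Pecam1 and Esam out of the general genes, added after seeing the data, gave a sinusoidal difference of 0.31. FPKM without read counts gives no counting error, and 3 animals per genotype limit the precision.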

Other observations

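The tested genes nearest to the 10 on the chromosome, some of them far away, were read as a further description. Of 19 nearest tested genes on either side, 4 rose and none fell by limma's adjusted p in Cbx2-/- marrow, against 8.80% and 8.31% of all tested genes, with 1 lower at an unadjusted p under 0.05. The 4 were Sept5 (146.9 kb from Cldn5), Milr1 (35.9 kb from Pecam1), Vsig2 (0.9 kb from Esam) and Tcea2 (8.7 kb from Sox18). Sept5, a septin gene, was at 54.7 ± 3.39 FPKM in Cbx2-/- marrow and 24.5 ± 2.12 FPKM in wild-type marrow (SD, n = 3 each; limma adjusted p = 0.00277). The nearest tested genes of Stab1, Stab2, Plvap, Emcn, Cdh5 and Robo4 did not pass. For Stab2 the differences were 0.16 for Nt5dc3, 2.8 kb away, and 0.46 for Igf1, 851.1 kb away (log2 of FPKM + 1). Cdh11, on 1 side of Cdh5, was 1316.5 kb away.

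Adipocyte genes, read because capillary genes such as Gpihbp1 serve fat tissue, summed to between 2206 and 2891 FPKM in Cbx2-/- marrow and between 281 and 506 FPKM in wild-type marrow. Of 13 tested 11 rose and none fell by limma's adjusted p, against 8.80% and 8.31% of all tested genes, and 0 were lower at an unadjusted p under 0.05. Plin4 and Adig reached the test only through the mutant libraries. Plin1 (0.888, 1.77 and 0.606 FPKM in wild-type marrow) and Retn (0.969, 2.71 and 0.806 FPKM) reached it mainly through them. With at least 1 FPKM required in all 6 libraries 7 of 9 rose. Adig, a gene of fat cell formation, was at 15.7 ± 3.85 FPKM in Cbx2-/- marrow and 0.503 ± 0.252 FPKM in wild-type marrow (SD, n = 3 each; limma adjusted p = 0.000166), every wild-type library being under 1 FPKM. The part of fat tissue vessels in the endothelial values was not tested.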
